A study of Mus musculus with 3 samples.

Results

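Sites bound by both HDAC3 and KLF4 far from any protein-coding gene were described in the skin epithelium of mouse embryos close to birth. A site was counted when an HDAC3 peak centre lay at most 184 bp from a KLF4 peak centre, outside every protein-coding gene, and more than 50 kb from the nearest end of one (mouse genome GRCm38). There were 2117 such shared far peaks among 57936 HDAC3 peaks, and they made up 14.1% of the 14962 HDAC3 peaks that overlapped a KLF4 peak anywhere on the chromosomes. Each overlapped exactly 1 KLF4 peak, and that peak was itself more than 50 kb from a gene. The sites were thus chosen by the authors' peak calls of both factors and by position, so overlap, distance and peak height are given here as descriptions.

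Chromatin immunoprecipitation followed by sequencing had been done on the epidermis of the back, taken from wild-type embryos at day E18.5. It gave 3 libraries: HDAC3 (antibody Abcam ab7030), KLF4 (R&D AF3158) and an input with no antibody, all of the same genotype, age and tissue and with no treatment named in the labels. The HDAC3 library held 56787485 tags with 3.95% of them in peaks, and the KLF4 library held 61432711 tags with 6.81% in peaks. Each antibody had a single library, so replicate spread could not be measured and nothing was tested, and the labels do not say how many embryos went into a library. Of 8 keratinocyte marker genes, 7 carried a KLF4 peak within the gene or 1 kb of it and 5 an HDAC3 peak. Krt5, a basal keratin, carried neither, and Krt14 and Krt1 carried no HDAC3 peak. Genes marking other cells that the dissection could hold also carried peaks: HDAC3 lay on 7 and KLF4 on 4 of 8 melanocyte genes, on 4 and 2 of 8 dermal fibroblast genes, on 4 and 1 of 7 immune genes, on 5 and 2 of 8 endothelial genes, and on 3 and 5 of 8 muscle genes. The share of all protein-coding genes with a peak is not given here, so these counts do not set 1 cell type above another. A peak on a gene does not say in which cells the gene is expressed, and which cells supplied each shared far peak was not tested. In such bulk chromatin, a site bound in few cells and a site bound weakly in many cannot be told apart, nor can binding of both factors in the same cell from binding in different cells.

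HDAC3, a histone deacetylase of class I, is the catalytic subunit of the NCoR and SMRT corepressor complexes, brought to DNA by other proteins. KLF4 is a zinc finger transcription factor of the Krüppel-like family that binds GC-rich CACC-type sequences and is needed for the skin barrier to form. Sites that lie far from genes are often enhancers, which can act on a promoter over long distances, so the nearest gene is named here as a position and not as a target.

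The bases under a shared far peak could be read where the whole 185 bp peak fell inside a RefSeq promoter window, which runs from 250 bases before to 50 bases after a transcript start (GRCm38.p6). Of the 2117 sites, 28 touched such a window, every one at a long noncoding RNA gene, and 12 lay wholly inside. The 5 shown are examples and not all of those that share their features: 3 are among the highest HDAC3 scores of the 12 and 2 lower-scored ones hold a grainyhead-type match. They are written 5′ to 3′ on the strand of the noncoding gene. Capitals mark matches on either strand to CCNCNCCC, a form of the KLF and SP family motif, and to AACNGGTT, the form bound by grainyhead-like factors, which are epidermal transcription factors.
Gm12589 start, chr11:121777598-121777782, + strand of the gene: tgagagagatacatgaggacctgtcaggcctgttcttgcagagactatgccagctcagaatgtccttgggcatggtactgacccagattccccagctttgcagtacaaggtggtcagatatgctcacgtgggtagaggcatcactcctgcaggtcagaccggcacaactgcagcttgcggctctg
Gm32796 start, chr16:29977856-29978040, + strand of the gene: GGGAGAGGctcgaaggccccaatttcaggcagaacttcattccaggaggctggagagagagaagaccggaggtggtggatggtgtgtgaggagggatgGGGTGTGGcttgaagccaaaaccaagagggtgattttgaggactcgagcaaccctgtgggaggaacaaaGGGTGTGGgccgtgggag
Gm13003 start, chr4:137165104-137165288, - strand of the gene: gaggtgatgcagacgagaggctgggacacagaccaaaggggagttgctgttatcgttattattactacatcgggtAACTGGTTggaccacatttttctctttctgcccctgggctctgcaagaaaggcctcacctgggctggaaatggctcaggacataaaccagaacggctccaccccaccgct
Gm40016 start, chr11:63464085-63464269, - strand of the gene: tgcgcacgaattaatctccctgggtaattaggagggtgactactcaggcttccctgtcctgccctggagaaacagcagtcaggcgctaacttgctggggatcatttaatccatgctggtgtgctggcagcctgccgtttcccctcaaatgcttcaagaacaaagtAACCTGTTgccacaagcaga
Gm34097 start, chr5:97831866-97832050, - strand of the gene: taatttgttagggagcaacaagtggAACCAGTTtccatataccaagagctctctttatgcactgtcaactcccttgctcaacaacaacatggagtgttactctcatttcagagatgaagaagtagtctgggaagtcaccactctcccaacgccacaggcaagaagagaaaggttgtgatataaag

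Matches to CCNCNCCC were found in 5 of the 12 peaks (41.7%), against 40.6% of the central 185 bases of 32817 RefSeq promoter windows and 28.1% of 11587 windows of long noncoding RNAs. The shorter CACCC, which can overlap it, was in 7 (58.3%, against 43.0% and 38.9%). A match to AACNGGTT was in 4 peaks (33.3%, against 1.35% and 1.52%), and TGANTCA, the AP-1 form, was in 3 (25%, against 5.17% and 6.11%). TTGCNNAA, the C/EBP form, was in 2 (16.7%, against 6.97% and 7.66%). All motifs were searched on both strands. The 12 peaks had a GC content between 43.2% and 58.9%. These 12 sites all lie at annotated starts of noncoding transcripts, and their letters describe those sites alone.

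The printed sites spanned a wide range of occupancy. The Gm12589 site, between Metrnl and Ptchd3, had an HDAC3 score of 170 and a KLF4 score of 428 and held neither capitalised motif. The Gm32796 site lay 87409 bp from Hes1, the Notch target repressor, scored 141 and 346, and held 3 matches to CCNCNCCC. The Gm13003 site lay 112439 bp from Wnt4, a Wnt ligand, scored 82 and 275, and held 1 grainyhead-type match. These scores are tag numbers that the peak caller adjusts by position, and they rank peaks within 1 list only.

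The share of far HDAC3 peaks that overlapped KLF4 was below that in each of the other 3 location classes, while the share of far KLF4 peaks that overlapped HDAC3 lay within the range of the other classes. Of 11437 far HDAC3 peaks, 18.51% overlapped KLF4 (17.8 to 19.2), beside 25.8% of all HDAC3 peaks on chromosomes. The share was 40.9% within 1 kb of a protein-coding gene end, 24.7% in the rest of gene bodies and 29.3% at 1 to 50 kb outside a gene. Of 6617 far KLF4 peaks, 32.0% overlapped HDAC3 (30.9 to 33.1), beside 31.7% of all KLF4 peaks, 32.6% at gene ends, 30.2% in gene bodies and 33.8% at 1 to 50 kb. The ranges in parentheses are 95% intervals by the exact Clopper-Pearson method for shares. They reflect counting error alone, since each antibody had 1 library. PCR copies are also not independent molecules.

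The overlap fell stepwise with distance for HDAC3. It was 22.2% (869 of 3920) at 50 to 100 kb, 19.2% (857 of 4457) at 100 to 250 kb, 14.3% (303 of 2121) at 250 to 500 kb and 9.37% (7.58 to 11.4; 88 of 939) beyond 500 kb. For KLF4 the same steps gave 33.4%, 33.4%, 29.1% and 21.5% (17.6 to 25.8), so its share was lower only past 250 kb. The median score of all HDAC3 peaks outside genes fell over the same distances, from 31 within 1 kb of a gene to 20 at 50 to 100 kb and 17 beyond 500 kb, and that of KLF4 from 71 to 59 and 42.5.

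**Figure D1:**
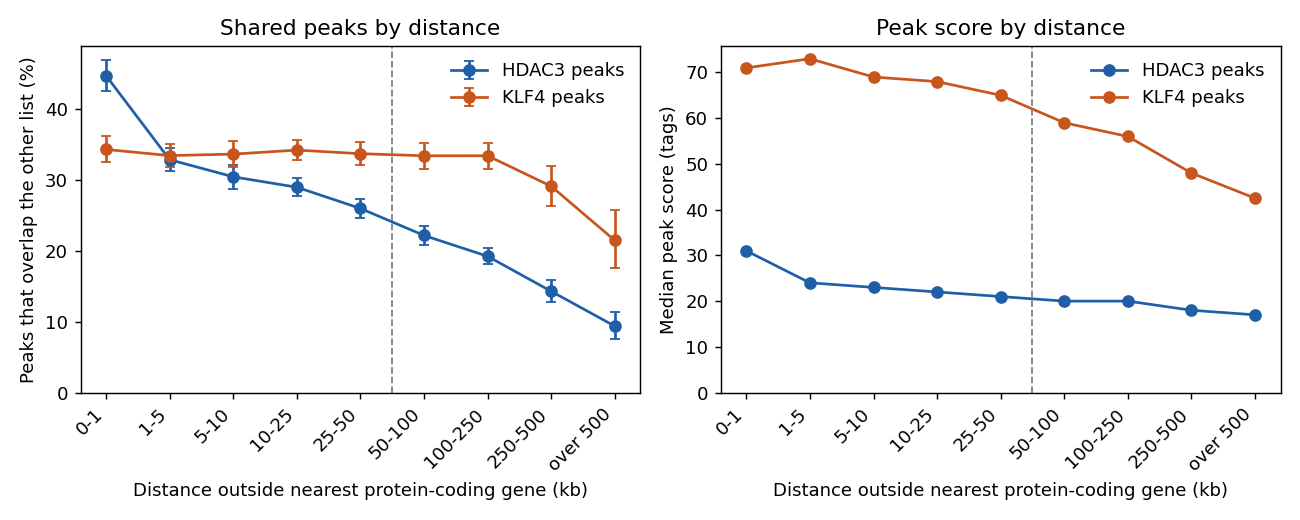
Left, the percentage of HDAC3 (blue) and KLF4 (orange) peaks outside protein-coding genes that overlap the other list, by distance from the nearest gene in kb, with exact 95% intervals as bars. Right, the median peak score in tags for the same bins; the dashed line marks 50 kb, and the HDAC3 share falls from 44.7% to 9.37% while the KLF4 share stays between 33.4% and 34.3% up to 250 kb.

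Far HDAC3 peaks were low in their list: 6.35% of them were in its highest-scored decile and 29.7% in its lowest 2 deciles. Within the highest decile, 88.8% of far HDAC3 peaks overlapped KLF4 (86.3 to 91.0; 645 of 726), beside 86.7% of all peaks in that decile. In the lowest decile the shares were 1.12% and 2.05%. When the whole list's share in each decile was applied to the far peaks' own mix of deciles, the calculated share was 18.4%, beside the 18.51% counted. For KLF4 the same calculation gave 28.6% beside 32.0%, and the far share was above the whole list's in 9 of 10 deciles, with 72.6% (68.3 to 76.7) beside 68.5% in the highest.

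More than 50 kb from any protein-coding gene lay 37.4% of the sequence between the first and last such genes of the chromosomes, or 1006 Mb. That sequence carried 11.4 HDAC3 peaks, 6.58 KLF4 peaks and 2.10 shared far peaks per Mb. Chromosome 13 had the most shared far peaks (218), followed by chromosome 2 (165) and chromosome 10 (162), and chromosome Y had 1. Shared far peaks were 29.9% of all shared HDAC3 peaks on chromosome 13, 20.2% on chromosome 10, 20.1% on chromosome 12 and 20% on X. On chromosomes 11 and 19 the shares were 6.06% and 6.31%. The far part of the whole HDAC3 list also differed, with 973 of 3035 peaks on chromosome 13 and 702 of 3124 on chromosome 10. It was 532 of 3977 on chromosome 11 and 207 of 1781 on chromosome 19. Whether shared peaks differ between chromosomes beyond this was not tested.

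The sites ranged from 50041 to 1982935 bp from a gene, with a median of 118462 bp. Of the 2117, 1248 (59.0%) were more than 100 kb away, 391 (18.47%) more than 250 kb, 88 (4.16%) more than 500 kb and 6 (0.283%) more than 1000 kb. The centres of the 2 peaks of a pair lay a median of 31 bp apart (29 to 33 by order statistics), with 404 pairs (19.1%) within 10 bp and 1472 (69.5%) within 50 bp. In 17 pairs the centres were at the same base.

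HDAC3 occupancy at the shared far peaks ran from a score of 16, the calling threshold, to 227, with a median of 40 (39 to 41) and quartiles of 27 and 57. KLF4 scores ran from 19, its threshold, to 653, with a median of 82 (78 to 86) and quartiles of 50 and 132. The median was 24.5 HDAC3 tags and 37.1 KLF4 tags, each scaled to the depth of the input, against 3 input tags at either peak. This gave a median fold over input of 7.18 for HDAC3 (6.95 to 7.44) and 10.9 for KLF4 (10.6 to 11.3). A count of 3 input tags has an exact Poisson interval of 0.619 to 8.77, so the fold of a single site is imprecise.

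By score, shared far peaks were somewhat lower than shared peaks nearer to genes and higher than far peaks of 1 factor. Shared HDAC3 peaks had a median score of 45 at gene ends, 42 in gene bodies and 44 at 1 to 50 kb, beside 40 for the far ones, and KLF4 peaks 92, 93 and 98 beside 82. Far HDAC3 peaks without KLF4 had a median of 18 and far KLF4 peaks without HDAC3 a median of 47. The median fold over input of HDAC3 was instead higher at far peaks without KLF4, 7.59 beside 7.18 at shared far peaks. Those peaks without KLF4 had medians of 12.2 scaled HDAC3 tags and 2 input tags, beside 24.5 and 3 at shared far peaks. Their median fold over the surrounding 10 kb was lower, 6.15 beside 7.44. For KLF4 the median fold over input was 7.99 at far peaks without HDAC3, beside 10.9 at shared far peaks. Among shared peaks, the far class was lowest by median score but highest by median fold over the surrounding 10 kb. This median fold for HDAC3 was 7.44 at shared far peaks and 6.72, 6.61 and 6.80 in the other classes, and for KLF4 10.2 beside 8.82, 9.56 and 9.86. Within 4 tags of the HDAC3 threshold lay 8.36% of the shared far peaks (177) and 69.4% of the far HDAC3 peaks without KLF4.

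At least 8-fold over input, HDAC3 was found at 913 shared far peaks (43.1%), beside 41.7% of all HDAC3 peaks, a share near that background. KLF4 reached 8-fold at 1440 (68.0%), beside 54.4% of all KLF4 peaks. At shared peaks nearer to genes its share was 60.5% at gene ends, 69.4% in gene bodies and 71.0% at 1 to 50 kb. Both factors reached 8-fold at 748 shared far peaks (35.3%), for which no share over other peaks is given here. Counting every peak tied at the boundary score, which adds a few to the deciles of equal size above, HDAC3 was in the highest decile of its own list at 655 (30.9%, beside 10.2% of the list) and KLF4 at 330 (15.6%, beside 10.1%). Shared peaks nearer to genes had 33.0% to 36.4% in the highest HDAC3 decile and 21.1% to 23.9% in the highest KLF4 decile. Since a shared peak had to pass both callings, these counts describe the sites and support nothing further.

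The 2 scores rose together across the 2117 sites, with a Spearman correlation of 0.676, beside 0.723 to 0.738 in the other shared classes. The sites share the 2 libraries and the input and had to pass both thresholds, so this correlation is a description. Neither score followed distance closely (-0.13 for HDAC3, -0.10 for KLF4). The ratio of scaled KLF4 to scaled HDAC3 tags had a median of 1.46 with quartiles of 1.02 and 2.12, and it ran from 0.250 to 8.08.

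**Figure D2:**
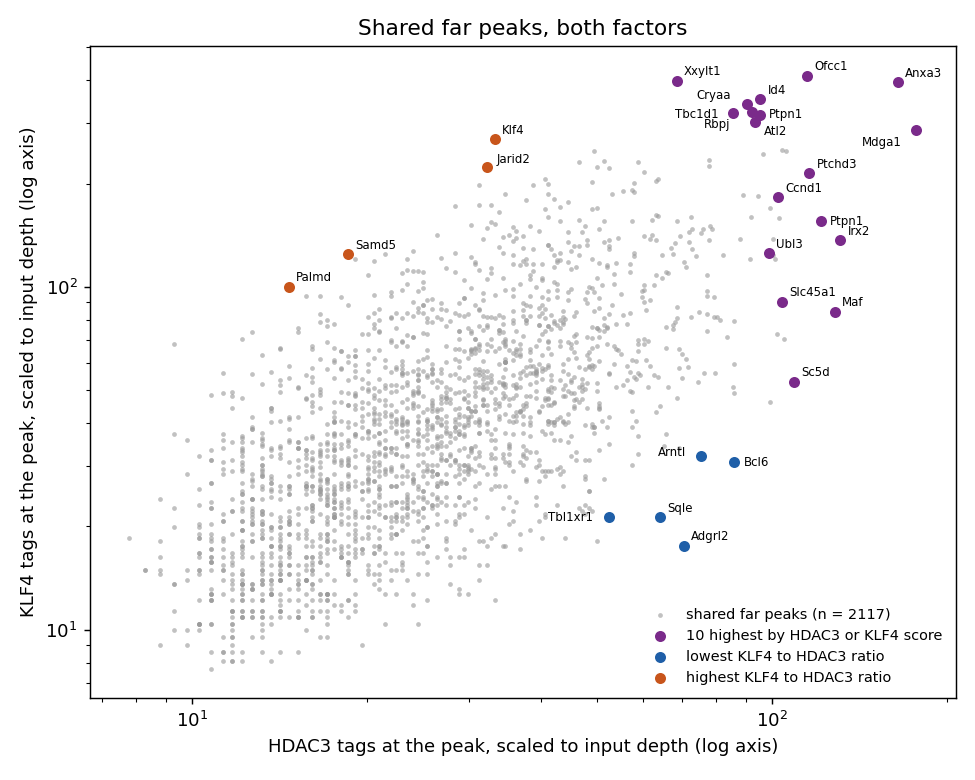
Each point is a shared far peak, with HDAC3 tags on the x axis and KLF4 tags on the y axis, both scaled to the input depth and on log axes. Coloured points are the 10 highest by either score (purple) and, among the highest-scored 10% of these sites, the 5 lowest (blue) and 4 highest (orange) KLF4 to HDAC3 ratios; Anxa3 and Mdga1 are among the 10 highest for both factors.

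The strongest sites lay beside genes of several kinds. The highest HDAC3 score, 227, was on chromosome 17 at 29942522 to 29942706, 54031 bp upstream of Mdga1, a cell surface glycoprotein gene, with Zfand3 on the other side. It carried 177.2 scaled HDAC3 tags against 8 input tags and 286.4 KLF4 tags against 9, or 22.1-fold and 31.8-fold over input. It ranked 4 in the whole HDAC3 list. The second, with a score of 223, lay 52264 bp from Anxa3, a calcium-dependent phospholipid-binding protein, on chromosome 5 at 96898140 to 96898324. It had 164.9 HDAC3 and 394.9 KLF4 tags against 8 input tags, and its KLF4 score of 653 was the highest of all shared far peaks. An input of 8 tags has a Poisson interval of 3.45 to 15.8. The 2 lists of 10 highest sites, by HDAC3 and by KLF4 score, had these 2 sites in common.

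The other 8 of the 10 highest HDAC3 scores ran from 147 to 185, beside genes of different functions. A site 77119 bp downstream of Irx2, an Iroquois homeobox gene, scored 185 for HDAC3 and 286 for KLF4. It had 131.2 and 136.6 scaled tags against 8 and 6 input tags. The gene-free interval between Cebpb, a transcription factor of keratinocyte differentiation, and Ptpn1, a tyrosine phosphatase, held 1 site of HDAC3 score 168 and KLF4 score 302 and another of 129 and 567, which is among the 10 highest for KLF4. Maf, another differentiation factor, had a site 377119 bp away with scores of 164 and 183, the most distant of the 10 highest for HDAC3. Between Sc5d, an enzyme of cholesterol synthesis, and Sorl1, a sorting receptor, a site scored 168 for HDAC3 and 117 for KLF4, or 109.1 scaled HDAC3 tags against 52.9 KLF4 tags. The remaining 4 of the 10 lay nearest to Ptchd3, Ubl3, Slc45a1 and Ccnd1, which encodes cyclin D1, with HDAC3 scores of 170, 152, 149 and 147.

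The highest KLF4 sites after Anxa3 lay nearest to Xxylt1 (score 650), which adds xylose to Notch, Ofcc1 (637) and Id4 (609), an inhibitor of basic helix-loop-helix factors. Cryaa (595), Rbpj (588), the DNA-binding effector of Notch, Tbc1d1 (573) and Atl2 (550) followed, beside the Ptpn1 and Mdga1 sites already given. HDAC3 scores at these sites ran from 98 at Xxylt1 to 227 at Mdga1. At the Rbpj site, 111520 bp upstream of the gene, the centres of the 2 peaks were at the same base, with 92.5 HDAC3 and 323.5 KLF4 scaled tags against 5 and 6 input tags. By the sum of both ranks, the 10 leading sites also took in one 96418 bp upstream of Errfi1, the feedback inhibitor of the EGF receptor (146 and 480), one near Mylip, a ubiquitin ligase for the LDL receptor (145 and 454), and one near Mn1 (140 and 473). Of all shared far peaks, 7 were among the 100 highest HDAC3 peaks of the whole list and 10 among the 100 highest KLF4 peaks.

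Some sites were strong for 1 factor and weak for the other. Among the 218 sites with the highest HDAC3 scores of the 2117, cut at their own 10% (a score of 78 or more, not a decile of the whole list), the lowest KLF4 to HDAC3 ratio was at Adgrl2, a latrophilin, with 70.5 HDAC3 tags and 17.6 KLF4 tags (0.250). Sqle, an enzyme of sterol synthesis, had 64.1 and 21.3 tags, and Bcl6, a repressor that recruits corepressors, had 86.1 and 30.8. Tbl1xr1, which encodes a subunit of the NCoR and SMRT complexes, had a site with 52.4 and 21.3 tags, and Arntl, the clock factor BMAL1, one with 75.4 and 32.1. At these 5 sites KLF4 scores ran from 42 to 72, all below the median of the shared far peaks.

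Among the 216 sites cut in the same way by KLF4 score (210 or more), the highest ratio, 8.08, was in the interval beside Klf4 itself. That site lay 404243 bp upstream of the gene, on chromosome 4 at 55936626 to 55936810, and had 33.3 HDAC3 tags and 269.2 KLF4 tags against 4 and 5 input tags. Jarid2, a component of Polycomb repressive complexes, had a site with 32.3 and 223.5 tags, and Palmd and Samd5 had ratios of 6.80 and 6.69. HDAC3 scores at these 4 ran from 26 to 52, on both sides of the median of 40.

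The highest folds over input came where the input was lowest. The 5 highest for HDAC3 lay nearest to 4933412E24Rik (121-fold), Tgfbr2, a TGF-beta receptor (103-fold), Arntl (99.4-fold), Il15 (95.9-fold) and Sgk1 (78.3-fold), all with an input of 1 tag or with an input written as 0.5. The 5 highest for KLF4 lay nearest to Zfp438 (220-fold), Id2 (198-fold), Arf6 (195-fold), Zfp236 (188-fold) and Adgrd1 (186-fold), each with an input of 0.5 at the KLF4 peak. An input of 1 tag has an interval of 0.0253 to 5.57, so these folds are imprecise. Of the 2117 sites, 70 had an HDAC3 input below 1 tag and 42 had 10 or more.

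The 5 most distant sites had HDAC3 scores of 19 to 49 and KLF4 scores of 22 to 303. One lay 1982935 bp from Tmeff2 in the interval shared with Slc39a10, with scores of 29 and 42, and another in that interval, 1175114 bp from Slc39a10, scored 49 and 303. Sites 1675952 bp from Slc10a2, 1414587 bp from Nudt12 and 1086280 bp from Crim1 scored 34 and 162, 19 and 22, and 19 and 44. At the other limit, the members nearest to 50 kb were at 50041 bp from Elovl4 (60 and 177) and 50068 bp from Pgrmc2 (51 and 94), and just outside were shared peaks at 49986 bp from Atrnl1 (26 and 62) and 49954 bp from Usp38 (42 and 145). The widest accepted pairs, 183 bp apart, lay near Hivep1 (38 and 33) and Insig1 (37 and 115). The narrowest pairs not accepted, 185 bp apart, lay near Mbnl1 (24 and 46) and Arg1 (24 and 64).

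The number of sites differed between gene-free intervals, meaning the stretches between neighbouring protein-coding genes. Of 2967 intervals longer than 100 kb, 762 held a shared far peak, 356 of them exactly 1. The 31 intervals with 10 or more held 433 sites (20.5%), and the 120 with 5 or more held 1010 (47.7%). Chained at most 50 kb apart, 1331 sites (62.9%) formed 420 groups and 786 stood alone. These counts make no allowance for the length of the intervals, which had a median of 233 kb. The same counts over all far HDAC3 or KLF4 peaks are not given here, so the spread describes these sites without a background.

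The interval beside Klf4 held the most. It runs 1208 kb on chromosome 4 from Klf4 to Actl7b, an actin-like gene of the testis, and held 85 far HDAC3 peaks and 88 far KLF4 peaks. Of these, 47 were shared, or 55.3% of the HDAC3 peaks (44.1 to 66.1) and 53.4% of the KLF4 peaks. Over all far peaks the shares were 18.51% for HDAC3 and 32.0% for KLF4. The 47 came to 42.4 shared far peaks per Mb, beside 2.10 over all far sequence. This interval was picked for its number of shared peaks, so its shares and density are descriptions. Their HDAC3 scores ran from 17 to 112 with a median of 47, and their KLF4 scores from 21 to 515 with a median of 97. Klf4 was the nearest gene for 25 of them, all upstream of it, and Actl7b for 22. The site of highest HDAC3 score there, 112, lay 396903 bp from Klf4, and the site of highest KLF4 score, 515, lay 404243 bp from it.

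**Figure D3:**
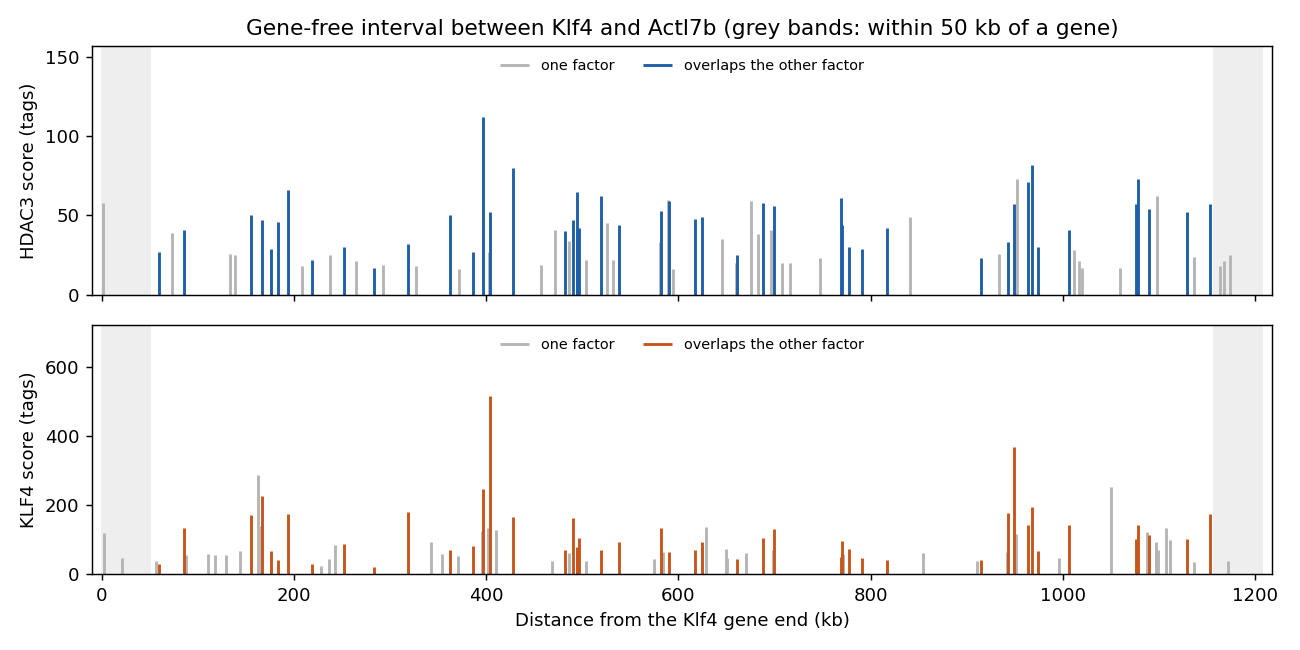
Each line is a peak in the interval from Klf4 (left end, 0 kb) to Actl7b (right end, 1208 kb), at its distance from the Klf4 gene end in kb and with its score in tags as height, HDAC3 above and KLF4 below. Coloured lines overlap the other factor and grey lines do not; the tallest shared lines of both panels stand near 400 kb, and grey bands mark the 50 kb next to each gene.

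The 2 largest groups of sites, each of 14, were both in that interval, one spanning 272 kb and lying 156 to 428 kb from Klf4, the other spanning 217 kb. The interval from Tle3, which encodes a Groucho-type corepressor, to Rplp1 held a group of 13 in 182 kb, and 13 of its 17 far HDAC3 peaks were shared (76.5%, 50.1 to 93.2). Over all far HDAC3 peaks the share was 18.51%. Cited2, a CBP and p300 interacting regulator, had 13 in 181 kb of the 2952 kb interval between Nmbr and Cited2, and all 20 shared sites of that interval had Cited2 as nearest gene. A group of 11 in 172 kb lay near the predicted gene Gm46911. Groups of 10 lay between Bcl6 and Lpp, where 12 of 19 far HDAC3 peaks were shared (63.2%, 38.4 to 83.7), between Prdm1, the transcriptional repressor BLIMP1, and Prep, and between Klf5, a relative of Klf4, and Klf12. Another group of 10 lay between Rad51b, a DNA repair gene nearest to 4 of them with the highest HDAC3 score of 139, and Zfp36l1, an mRNA decay factor nearest to 6. The shared percentages given for these intervals were picked after values were seen, so they and their ranges only describe the intervals named. Scores within groups varied widely: in the group beside Tle3 HDAC3 ran from 30 to 124 and KLF4 from 50 to 456.

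**Figure D4:**
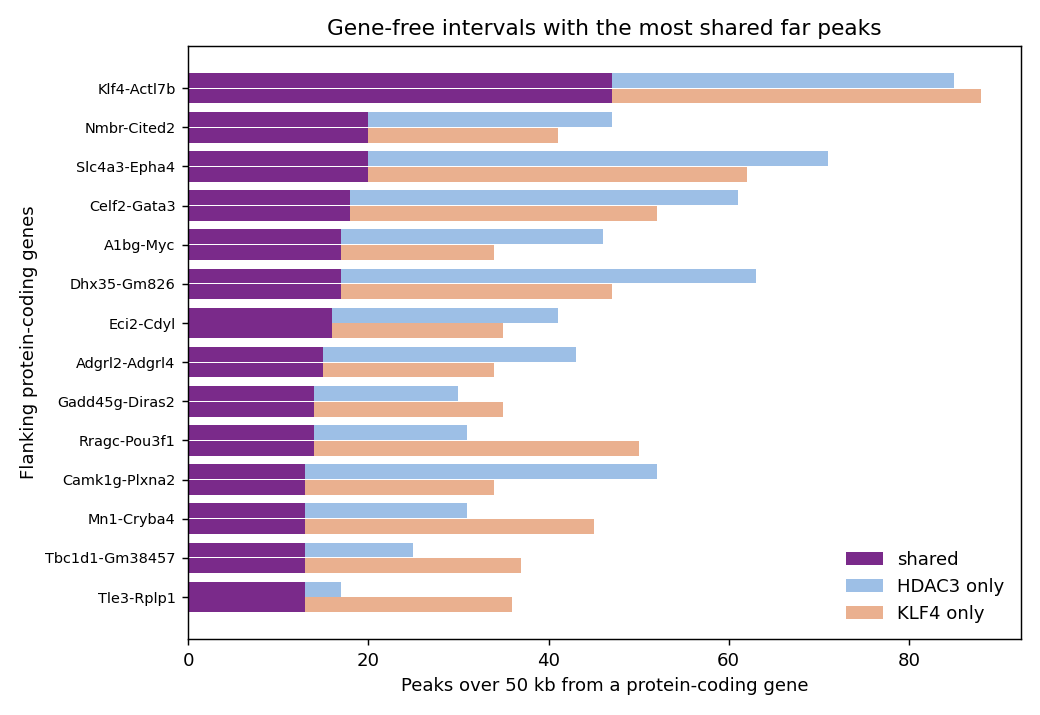
Bars count the peaks more than 50 kb from a protein-coding gene in the gene-free intervals with the most shared far peaks, named by their flanking genes. The upper bar of each pair is HDAC3 and the lower KLF4, with the shared peaks in purple; the interval from Klf4 to Actl7b holds 47 shared peaks, and no other holds more than 20.

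The sites had 961 nearest protein-coding genes, 4.39% of the 21900 in the table and 20.2% of the 4744 that border far sequence. After Klf4 (25 sites), Actl7b (22) and Cited2 (20) came Gata3, a transcription factor of epidermal and hair lineages (18), and Myc, the growth regulator (18). The sites of Gata3 lay 65.2 to 932 kb downstream, with HDAC3 scores of 19 to 93 and KLF4 scores of 24 to 401, and those of Myc lay 71.6 to 758 kb away, with scores of 23 to 116 and 31 to 384. Adgrl2 and Tle3 had 14 each, Gm826 and Zfp608 13 each, and Gadd45g, Gm46911, Jarid2, Klf6, Med13l and Slc4a3 11 each. Among the far HDAC3 peaks nearest to these genes, the shared percentage ran from 27.5% at Adgrl2 to 66.7% at Tle3, beside 18.51% of all far HDAC3 peaks. These genes were picked by their number of shared peaks, so raised percentages are partly built in.

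Where the strand of the nearest gene was known, 55.8% of the sites (53.3 to 58.2; 892 of 1599) lay upstream of it. The share was 59.6% (55.7 to 63.5) at 50 to 100 kb, 54.8% at 100 to 250 kb and 50.2% (44.4 to 55.9) beyond 250 kb. Far HDAC3 peaks without KLF4 lay upstream in 52.4% of cases (51.2 to 53.5) and far KLF4 peaks without HDAC3 in 52.8% (51.1 to 54.5). Over the same distances the KLF4 peaks without HDAC3 also fell, with 56.4%, 52.4% and 47.9%. The HDAC3 peaks without KLF4 had 53.9%, 51.5% and 51.9%. A long noncoding RNA gene covered 486 of the sites (23.0%, 21.2 to 24.8), beside 18.6% (17.8 to 19.4) of far HDAC3 peaks without KLF4 and 22.3% (21.1 to 23.5) of far KLF4 peaks without HDAC3. Within 1 kb of the end of such a gene lay 122 sites (5.76%), beside 3.17% and 5.04%. With noncoding genes and pseudogenes counted as genes too, 442 sites were left.

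Genes of epidermal transcription factors were often the nearest gene. Of 47 listed, 32 border far sequence and 27 of those (84.4%) were nearest to a shared far peak, beside 20.2% of all bordering genes. They were nearest to 137 sites, at 15.0 per Mb of the far sequence closest to them, and 33.3% of their 412 far HDAC3 peaks were shared. Without Klf4 they had 112 sites at 13.1 per Mb, with 30.5% shared, beside 2.10 per Mb and 18.51% over all genes. Beside the Maf and Klf4 sites, Runx1, a factor of hair follicle stem cells, had 6, the highest 163942 bp upstream with scores of 145 and 157. That Runx1 site had 101.8 and 72.8 scaled tags, with 12 input tags at the HDAC3 peak. Sox4 had 3 (highest 107 and 187), Sox9, a hair follicle lineage factor, had 7 (highest 103 and 201), and Gata3 had its highest, 93 and 112, at 504642 bp. The median scores over the 137 sites were 46 and 88, beside 40 and 82 over all shared far peaks. Far HDAC3 and KLF4 peaks of either kind were also dense there, at 45.2 and 37.6 per Mb beside 11.4 and 6.58 over all genes.

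Immediate early and AP-1 genes, which respond to growth signals, had a like density. Of 14 that border far sequence, 11 (78.6%) were nearest to 48 sites, at 15.6 per Mb, and 39.0% of their 123 far HDAC3 peaks were shared. Over all genes these values were 20.2%, 2.10 per Mb and 18.51%. Dusp6, a phosphatase that limits ERK signalling, had 6, the highest with scores of 137 and 284. Jun, an AP-1 subunit, had 5 with a highest of 135 and 159, and Myc had its highest, 116 and 175, at 366119 bp. Zfp36l1 and Zfp36l2, which bind AU-rich mRNAs, had 6 and 4, and Egr2 had 1 with 91 and 370. The median scores over the 48 were 55 and 117. Far HDAC3 and KLF4 peaks of either kind were dense near these genes too, at 39.9 and 27.9 per Mb beside 11.4 and 6.58 over all genes.

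Growth factor and morphogen signalling genes were nearest to 55 sites, from 18 of the 38 genes that border far sequence (47.4%), at 6.61 per Mb and with 27.8% of far HDAC3 peaks shared. They included Errfi1 (6 sites), Hes1 (7, the highest with 141 and 346), Tgfbr2 (4), Lef1, a Wnt effector (1, with 93 and 180), Bmp7, a BMP ligand (4, the highest with 83 and 92), and Wnt4 (3). Near the genes of this signalling list, far HDAC3 and KLF4 peaks of either kind came to 23.8 and 18.0 per Mb, beside 11.4 and 6.58 over all genes. Genes on the list of developmental transcription factors were nearest to 56 sites, from 20 of 49 bordering genes (40.8%, beside 20.2% of all bordering genes). Their 2.60 sites per Mb and 16.8% of far HDAC3 peaks shared were near the 2.10 per Mb and 18.51% over all genes. The highest of these were at Irx2 (7 sites) and Id4 (3), followed by Sox6 (105 and 176), Irx3 (91 and 207), Nr2f2 (60 and 222) and Meis1 (57 and 204).

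Among the lists of structural and barrier genes, the cornified envelope list held few genes that border far sequence. Junction and adhesion genes bordered it in 12 of 41 cases and barrier lipid genes in 7 of 30, beside 4744 of 21900 protein-coding genes. The sites nearest to genes of these lists were few in number. Junction and adhesion genes were nearest to 15 sites, from 7 of 12 bordering genes (58.3%, beside 20.2% of all bordering genes). These came to 3.36 sites per Mb with 23.1% of far HDAC3 peaks shared, beside 2.10 per Mb and 18.51% over all genes. The highest were at Dsg1c, a desmosomal cadherin (103 and 166), Gja1 (72 and 92) and Gjb6 (56 and 110), gap junction proteins, and Cldn1, the tight junction protein (64 and 111), and Itga6 and Dsc3 had 1 each. Of 39 cornified envelope genes only 2 border far sequence, and Spink5, a protease inhibitor of the outer epidermis, was nearest to 1 site (30 and 60). Of 30 barrier lipid genes 7 border far sequence, and 2 (28.6%) were nearest to 3 sites: Elovl4, which makes very long chain fatty acids (127 and 183 at its highest), and Abhd5, a lipase cofactor (20 and 57). The barrier lipid genes had 2.87 sites per Mb, with 11.5% of their 26 far HDAC3 peaks shared. Among marker genes of cell types, Trp63, the master factor of stratified epithelia, was nearest to 2 sites, Dcn and Kdr to 1 each, Ptprc to 2, and no melanocyte marker to any. No muscle marker borders far sequence, so none could be nearest.

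**Figure D5:**
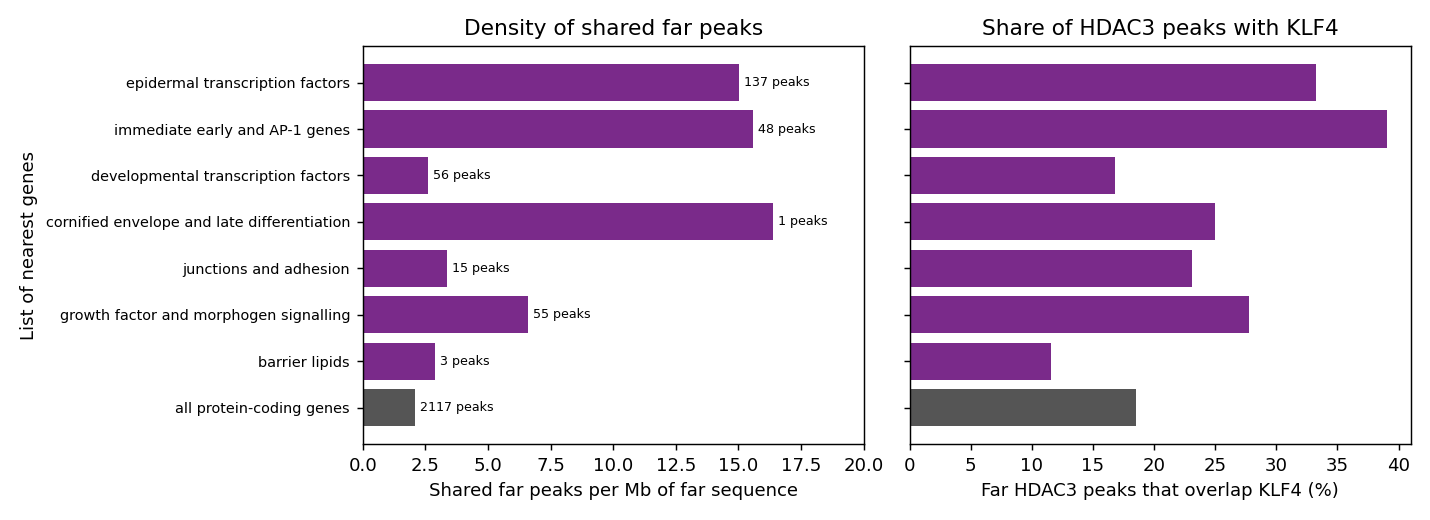
For each gene list, the left panel gives shared far peaks per Mb of far sequence nearest to its genes, with their number, and the right panel the percentage of far HDAC3 peaks nearest to its genes that overlap KLF4. Epidermal transcription factors (15.0 per Mb) and immediate early genes (15.6 per Mb) stand above all genes (2.10 per Mb); the cornified envelope bar rests on 1 peak.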

How the data were processed

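Dorsal epidermis of wild-type E18.5 embryos gave 1 HDAC3, 1 KLF4 and 1 input library, grouped by the antibody in the labels. The submitters' processing notes name bcl2fastq, STAR, HOMER and the build GRCm38.p5. Tool versions were not given in the sources used here. HOMER called peaks of 185 bp in factor style, separately for each antibody and against the same input, at least 370 bp apart, per the file headers. Required were 4-fold enrichment over the input and over the local 10 kb, a Poisson p-value of 1.00e-04 and a false discovery rate of 0.001, per the file headers. Fragment lengths of 160 and 168 bp were used for HDAC3 and KLF4.

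The deposited tag signal is scaled by the authors to 10000000 tags or to the input depth, with empty input given as 0.5. The deposited score is a tag number that the caller adjusts by position; it was used only within a list. Fold over input and over the local region are ratios from the authors' caller. The deposited p-value of each peak and the fraction describing how tags centre on it were not used for any result.

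Peaks were placed on a RefSeq table of GRCm38.p6 with 49997 genes, 21900 protein-coding. Strand came from the RefSeq promoter table and was known for 17492 protein-coding genes. Patch releases keep primary chromosome coordinates. The placement, matching and overlap code was tested on simulated peaks. Python 3.11.15, numpy 2.4.6, pandas 2.3.3, scipy 1.17.1 and matplotlib 3.10.9 were used. Intervals on medians are binomial order-statistic intervals at 95%. They treat the peaks of 1 library as independent and hold no replicate spread.

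The members and gene lists were chosen with earlier results of these data known. Sites named are the 10 highest by HDAC3 score, by KLF4 score and by the sum of ranks, the 5 highest by each fold, the 5 farthest from a gene, and 2 on each side of the limits. Groups named are the 6 with the most sites, with 3 tied groups, and genes named are the 10 nearest to the most sites, with ties, and up to 6 per list by their highest HDAC3 score. The motifs, the intervals with a high shared percentage, the 5 lowest and 4 highest ratios, the chromosomes and the list of epidermal factors without Klf4 were added after values were seen. Alternatives changed the distance limit, the genes counted, the overlap, the peak threshold, the chaining distance and the gene assignment. Sequences under other sites were not analysed here, and 2 sites that these rules pick are not reported.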

Additional observations from a re-analysis of the deposited data

How the results depend on the processing

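No paired analysis was possible because each antibody has 1 library and no test was made. Of 70 alternative values, 23 moved by less than their interval (for a count, by less than 1.5 times) and 47 moved further; the cause was not tested except where fewer peaks or less sequence enter by construction. The number of sites, the share of far HDAC3 peaks that overlap KLF4, the reverse share, the median HDAC3 and KLF4 scores, the median folds of HDAC3 and KLF4 and the median centre distance are given in that order where they moved. With far meaning over 25 kb there were 3230 sites, 20.5% of HDAC3 peaks and a KLF4 score of 87. Over 100 kb there were 1248 sites, 16.6% and an HDAC3 score of 38. With noncoding genes and pseudogenes counted there were 442 sites, 13.8%, 29.6%, scores of 33 and 71, and 33.5 bp. With centres at most 50 bp apart the values were 12.9%, 22.2%, scores of 43 and 89, a KLF4 fold of 11.4 and 20 bp. At most 1 kb apart they were 21.7%, 38%, scores of 37 and 77, a KLF4 fold of 10.5 and 39 bp. With both peaks at least 8-fold over input there were 748 sites, 13.9%, 20.3%, scores of 47 and 99, folds of 12.7 and 19.4, and 26.5 bp. In the higher-scored 50% of each list there were 1273 sites, 34.6%, 46.9%, scores of 51 and 119, a KLF4 fold of 13.6 and 27 bp. In the 10000 highest-scored peaks of each list there were 538 sites, 42.3%, 50.2%, scores of 66.5 and 180, folds of 8.03 and 17.4, and 25 bp. Of the 2117 sites, 8.36% were within 4 tags of the HDAC3 threshold and 1.89% within 4 tags of the KLF4 threshold. How sequencing depth affects such weak sites was not tested.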

Other observations

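A few shared far peaks lay close to microRNA hairpins, which the definition of far does not count as genes. One on chromosome 6 at 31065498 to 31065682, with an HDAC3 score of 48 and a KLF4 score of 43, lay 2497 bp from the hairpin of Mir29b-1 and 2843 bp from that of Mir29a, while the nearest protein-coding gene, Klf14, was 106600 bp away. Another on chromosome 14 at 105621324 to 105621508, with scores of 48 and 158, lay 2226 bp from the hairpin of Mir6390 and 270531 bp from Spry2, an inhibitor of growth factor signalling.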
